A study of Mus musculus with 8 samples.

Results

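Voltage-gated calcium and sodium channels, their auxiliary subunits, potassium channels and HCN channels were examined in AtT20 cells. The set was a list of 40 genes, 38 of which were among the 19751 mouse genes that a probe of the array could be paired with. Expression was measured on 8 one-color Agilent mouse arrays, read in the Cy3 channel only, 4 from control cells and 4 from cells given HX630. AtT20 is an established mouse line of pituitary corticotroph tumor cells, and HX630 is a synthetic ligand that activates the retinoid X receptors. All cells were incubated for 48 hr in DMEM with 1% stripped FBS in 12-well plates, the HX630 group with 10 μM of the compound and the control group without it. The labels give 4 replicates per group and do not say that they came from separate cultures, so the p-values measure the spread between these samples, which may be technical. All control arrays lay on one slide and all HX630 arrays on another, so slide and treatment cannot be told apart.

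Pituitary corticotrophs are electrically excitable cells. They fire action potentials without input, calcium that enters through voltage-gated channels drives the release of ACTH, and potassium channels set the resting potential and the shape and spacing of the spikes. Auxiliary subunits carry the pore-forming subunits to the membrane and tune their gating.

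The processed signal of each spot was taken as log2 and centered on the 75th percentile of the array, so that a signal of 0 stands for that percentile. A gene was called higher or lower when its limma adjusted p was below 0.01 and its fold change was above 1.5, and where more than 1 probe of a gene was tested, the brightest stood for the gene. All levels below are log2 signals on this scale, means are given with the SD over 4 arrays, and log2 fold changes are HX630 minus control with their standard errors. A level belongs to its own probe and is not comparable between genes. This percentile was at an intensity of 1335 to 1863 in control and 1803 to 1899 with HX630, and no spot was saturated. Correlations between arrays were at least 0.994 within groups and between 0.978 and 0.984 across groups. The 6 corticotroph markers, *Pomc*, *Tbx19*, *Pitx1*, *Neurod1*, *Crhr1* and *Pcsk1*, were well above background on all 8 arrays. They were not stable, since *Pcsk1* was called lower, at 24.0% of control, and *Crhr1* (2.16-fold) and *Neurod1* (1.65-fold) were called higher. *Pomc*, *Tbx19* and *Pitx1* were lower by less than 1.5-fold, with groups that did not overlap. Of 22 markers of other cells, 21 had a probe and 12 were tested. Against 11.2% lower and 8.38% higher of all genes tested, 4 of these 12 markers were called lower (*Gh*, *Pecam1*, *Csf1r* and *Cd3e*) and 0 higher (limma, where *Sox10* had a log2 fold change of 0.40, adjusted p = 0.0163). Their summed signal, relative to the 75th percentile, ranged from 7.67 to 9.02 on the control arrays and from 5.50 to 6.41 on the HX630 arrays, and *Prl*, *Tshb*, *Cga*, *S100b*, *Cdh5*, *Tek*, *Pdgfrb* and *Lum* were not above background on any array. Among the brighter of these markers, the mean of *Cd3e* fell from 1.30 to -0.15. AtT20 is a cell line, and whether any of these signals came from other cells was not tested. The part of such transcripts in the results below was not tested either, and in a bulk RNA sample fewer cells of a type and less RNA per cell cannot be told apart.

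Of the 40 channel genes, 38 had a probe, and 31 of these were tested, each well above background on all 8 arrays. With HX630, 7 of the 31 were called higher and 7 lower. Over all 15319 genes tested, 8.38% were called higher and 11.2% lower. The largest rises were those of *Kcnn2*, *Scn3a* and *Kcnh6*, to between 2.89 and 3.87 times the control level, and the largest falls those of *Kcnd3* and *Kcnj3*, to 41.5% and 44.0% of it. Without the fold threshold, 21 of the 31 genes passed an adjusted p of 0.01 (12 higher, 9 lower), against 51.2% of all genes. The values of the groups did not overlap for 21 of the 31, against 61.5% of all genes. The median log2 fold change of the 31 genes was 0.01, close to the median of -0.03 over all genes, while the median of its size without the sign was 0.49 against 0.28. The list was chosen with earlier results of these data known, so these counts and sizes are not those of an independent set of genes. Rises and falls stood in equal number among the called channel genes. Each family held only a few calls, and a difference between families was not tested.

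The scaling between arrays sets where the zero of these changes lies. Scaling to the spike-in control probes moved the median of all genes up by 0.22 on the log2 scale and gave 10 channel genes called higher and 3 lower. Calls over all genes were then higher in 70.5% of cases, against 42.9% with the 75th percentile, 54.7% with the median of each array and 52.1% with quantile normalization. The log2 fold changes below are those with the 75th percentile, and those with the spike-in probes are larger by about this shift.

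**Figure D1:**
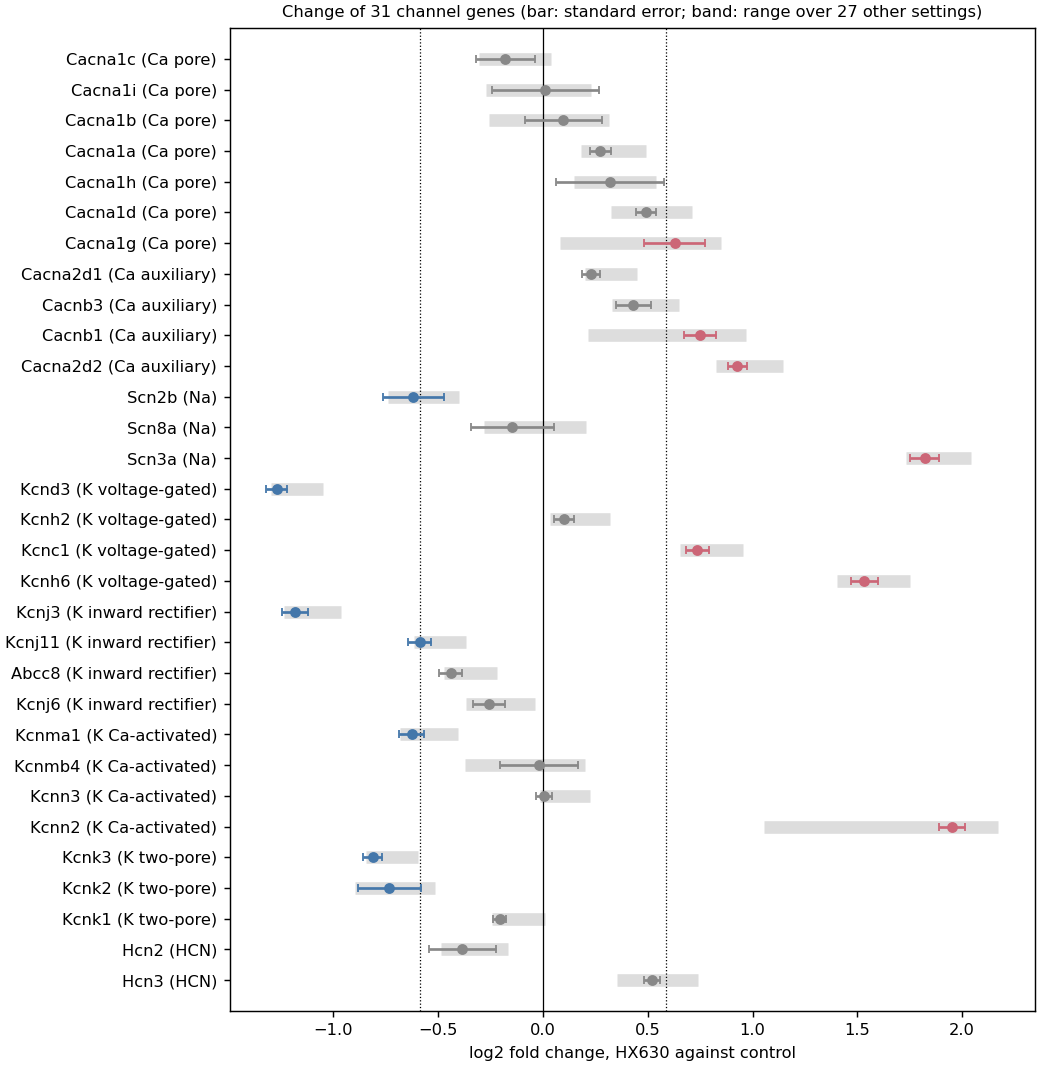
Log2 fold change, HX630 against control, of the 31 channel genes tested, grouped by family. Points and bars are the estimate and its standard error, red for genes called higher, blue for genes called lower and gray for the others, pale bands span the values under 27 other settings, and dotted lines mark a fold change of 1.5; the 7 inward rectifier and two-pore genes all lie left of 0.

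Of the 8 listed pore-forming subunits of the voltage-gated calcium channels, 7 were tested, 3 passed the p threshold, all 3 with higher signals under HX630, and 1 was called higher. The groups overlapped for the other 4. Of all genes tested, 51.2% passed that threshold in either direction and 8.38% were called higher. The called gene was *Cacna1g*, which encodes a T-type channel, one that opens at voltages near rest. Its signals were -5.16, -5.67, -5.69 and -5.72 on the control arrays and -4.68, -4.92, -5.00 and -5.11 on the HX630 arrays. The groups did not overlap, but control replicate 1 came within 0.05 of the lowest HX630 array. The means were -5.56 ± 0.26 and -4.93 ± 0.18, and the log2 fold change was 0.63 ± 0.15 (limma, adjusted p = 0.00666). The call was lost when any of control replicates 2, 3 and 4 or HX630 replicates 1, 2 and 3 was left out, with adjusted p between 0.0150 and 0.0207. It was also lost with normexp background correction, where the log2 fold change was 0.08 (limma, adjusted p = 0.768).

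Among the high-voltage calcium channels, *Cacna1a* and *Cacna1d* passed the p threshold and stayed below a fold change of 1.5. *Cacna1a* encodes the P/Q-type pore of nerve terminals and endocrine cells. Its signals were 1.29, 1.13, 1.13 and 1.17 in control and 1.53, 1.45, 1.40 and 1.43 with HX630, and the groups did not overlap. The log2 fold change was 0.27 ± 0.05 (limma, adjusted p = 0.00182). *Cacna1d* encodes an L-type pore that opens at fairly negative voltages. It ranged from -2.28 to -2.07 in control and from -1.69 to -1.65 with HX630, again with no overlap. Its log2 fold change was 0.49 ± 0.05 (limma, adjusted p = 7.6e-05), while a dimmer probe of the gene gave 0.15 ± 0.05. The groups overlapped for the other L-type pore *Cacna1c* (log2 fold change -0.18 ± 0.14) and for the N-type pore *Cacna1b* (0.10 ± 0.18). They also overlapped for the T-type pores *Cacna1h* (0.32 ± 0.26) and *Cacna1i* (0.01 ± 0.26). The probes of *Cacna1i* disagreed, since the dimmer of the pair gave -0.56 ± 0.05 (limma, adjusted p = 2.51e-05). Of these, *Cacna1b* and *Cacna1i* were lower with normexp correction (-0.26 and -0.04), and *Cacna1c* was higher with the spike-in scaling (0.04). The R-type pore *Cacna1e* was not above background on any array.

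Of the 7 listed auxiliary subunits of these channels, 4 were tested, all 4 passed the p threshold with higher signals under HX630, all 4 had groups that did not overlap, and 2 were called higher. Of all genes tested, 51.2% passed that threshold in either direction, 61.5% had groups that did not overlap, and 8.38% were called higher. *Cacna2d2* encodes an extracellular α2δ subunit, which raises the number of channels at the membrane. Its signals were -1.08, -1.13, -0.95 and -1.04 in control against -0.09, -0.12, -0.13 and -0.15 with HX630. The HX630 arrays lay within 0.06 of each other and far above the control arrays. The means were -1.05 ± 0.08 and -0.13 ± 0.03, a 1.90-fold rise with a log2 fold change of 0.93 ± 0.05 (limma, adjusted p = 1.55e-06). *Cacnb1* encodes an intracellular β subunit, which binds the pore and aids its delivery. Its signals were -4.42, -4.36, -4.50 and -4.70 in control and -3.70, -3.71, -3.74 and -3.83 with HX630, with no overlap. This gave a log2 fold change of 0.75 ± 0.08 (limma, adjusted p = 8.0e-05). With normexp correction it was 0.22 and was not called (limma, adjusted p = 0.153).

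The other pair of auxiliary genes had smaller estimates. The change of *Cacnb1* exceeded that of *Cacnb3* by 0.32 ± 0.12 log2 units, taking the difference of both signals on each array. The groups overlapped in this difference (exact permutation test, two-sided, p = 0.0857). *Cacna2d1*, the α2δ subunit that gabapentin binds, ranged from 3.54 to 3.71 in control and from 3.81 to 3.86 with HX630. Its log2 fold change was 0.23 ± 0.04 (limma, adjusted p = 0.00248), and a second probe gave 0.17 ± 0.04. *Cacnb3*, another β subunit, ranged from 1.24 to 1.54 in control and from 1.66 to 1.94 with HX630, with a log2 fold change of 0.43 ± 0.08 (limma, adjusted p = 0.00275). Both passed the p threshold at less than 1.5-fold. *Cacna2d3* and *Cacnb2* were not above background on any array, and *Cacnb4* was above it on 1 control and 2 HX630 arrays. Over both kinds of calcium channel subunit, 3 of 11 tested genes were called higher and 0 lower. At an unadjusted p of 0.05, 7 were higher and 0 lower, by limma and by the methods' t-test alike. Over all genes that threshold was passed by 31.6% higher and 36.4% lower with limma, and by 31.2% and 35.6% with the t-test. Other families split at this threshold, by both tests alike. The sodium channel genes had 1 higher and 1 lower, the voltage-gated potassium channel genes 2 and 1, and the calcium-activated ones 1 and 1. The estimate lay above 0 for 10 of the 11 calcium channel genes, a count that includes *Cacna1i* at 0.01 and *Cacna1b* at 0.10. It was 8 with normexp correction, 9 with the mean over probes and 11 with the spike-in scaling. With single arrays left out it was 8 without control replicate 4, and 9 without control replicate 3, HX630 replicate 1 or HX630 replicate 2. The median log2 fold change of the 11 was 0.32.

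Of the sodium channel genes, *Scn3a* rose and *Scn2b* fell. *Scn3a* encodes a pore-forming subunit best known from the developing nervous system. Its signals were -0.97, -1.25, -1.21 and -1.28 on the control arrays and 0.70, 0.62, 0.62 and 0.64 on the HX630 arrays. Every HX630 array lay more than 1.5 log2 units above every control array. The means were -1.18 ± 0.14 and 0.65 ± 0.04, a 3.54-fold rise with a log2 fold change of 1.82 ± 0.07 (limma, adjusted p = 5.15e-07). Additional probes of the gene gave 1.89 ± 0.06 and 2.29 ± 0.32, and the dimmest of them was not well above background on the 4 control arrays and above it on the 4 HX630 arrays. That probe was tested only because of its HX630 arrays, so its p of 4.58e-04 (limma, adjusted) rests on control signals near background and adds no support to the rise. The bound for it was at least 2.93-fold, where the control mean was set to the lowest signal well above background on each array or the probe's own signal if higher.

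*Scn2b* encodes a β subunit, a membrane protein with an adhesion domain that joins the sodium channel pore. Its signals were -3.88, -4.27, -4.07 and -3.98 in control and -4.31, -4.82, -4.93 and -4.63 with HX630. The groups were separated by 0.03 between control replicate 2 and HX630 replicate 1. The means were -4.05 ± 0.17 and -4.67 ± 0.27, and the log2 fold change was -0.62 ± 0.14 (limma, adjusted p = 0.00687). The call was lost when any of control replicates 1, 3 and 4 or HX630 replicates 2, 3 and 4 was left out (limma, adjusted p between 0.0171 and 0.0222). It was also lost with the spike-in scaling, where the log2 fold change was -0.40, and with the median scaling, quantile normalization and normexp correction. Without a filter and with the methods' t-test after Benjamini-Hochberg adjustment it was lost too, in all under 12 of 27 settings. *Scn8a*, a pore of adult neurons, had overlapping groups, from -1.63 to -0.96 in control and from -1.74 to -1.07 with HX630. This gave a log2 fold change of -0.15 ± 0.20 (limma, adjusted p = 0.552), and a second probe gave -0.01 ± 0.04. The dimmest probe of *Scn8a* gave 0.77 ± 0.14 and was called higher (limma, adjusted p = 0.00164), so the probes of this gene did not give the same call. *Scn9a* and *Scn3b* had no probe that could be paired with them and are not analysed here.

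The change of *Scn3a* was larger than that of *Scn8a* by 1.97 ± 0.28 log2 units, taking the difference of both signals on each array. The 4 HX630 arrays and the 4 control arrays did not overlap in this difference (exact permutation test, two-sided, p = 0.0286, the smallest that 4 against 4 arrays allow). All 52 pairs of tested genes within a family were compared in this way, a comparison added after the values were seen. Of these, 29 reached that smallest p, which was 0.0512 after Benjamini-Hochberg adjustment over the 52 pairs. Among the 29 were *Cacna2d2* against *Cacna2d1*, which differed in their changes by 0.70 ± 0.06 log2 units, and the pairs named below.

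**Figure D2:**
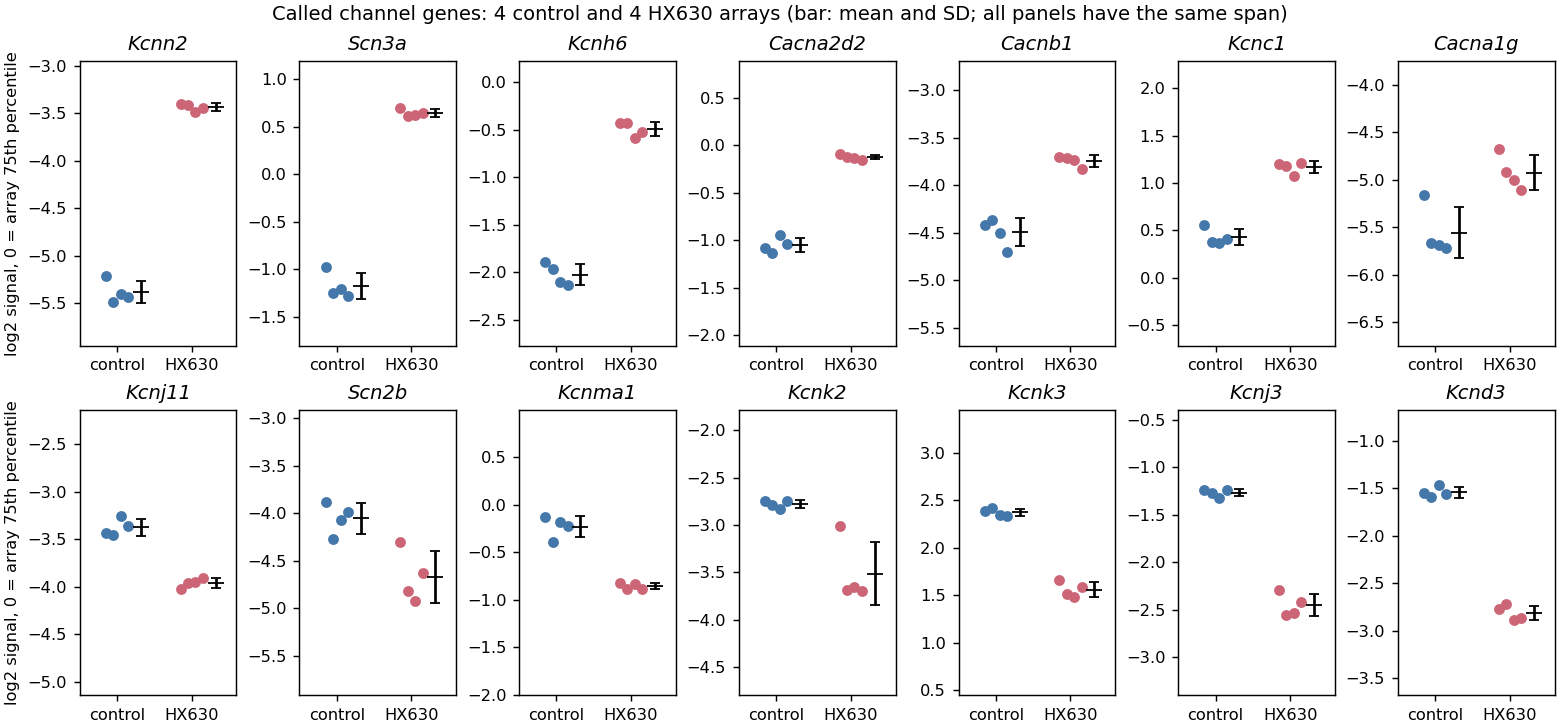
Log2 signal relative to the 75th percentile of the array (y axis, the same span in each panel) on the 4 control (blue) and 4 HX630 (red) arrays for the 14 channel genes called higher (top) or lower (bottom). Dots are arrays, black bars the mean and SD; the groups are apart in all 14 panels, and 1 HX630 array of *Kcnk2* lies near the control arrays.

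The voltage-gated potassium channel genes moved in opposite directions. All 4 listed were tested, with 2 called higher and 1 lower. *Kcnh6* encodes a channel of the ether-a-go-go-related (ERG) type, whose current helps to set the resting potential and to end bursts of spikes. Its signals were -1.90, -1.97, -2.10 and -2.13 in control and -0.43, -0.43, -0.58 and -0.53 with HX630, with a wide gap between the groups. The means were -2.03 ± 0.11 and -0.49 ± 0.08, a 2.89-fold rise with a log2 fold change of 1.53 ± 0.07 (limma, adjusted p = 8.58e-07). A second probe gave 1.27 ± 0.07. *Kcnh2*, which encodes the related ERG channel of heart muscle, ranged from -0.59 to -0.41 in control and from -0.41 to -0.35 with HX630. The ranges of *Kcnh2* overlapped, and its log2 fold change was 0.10 ± 0.05 (limma, adjusted p = 0.0957). Set against each other on each array, *Kcnh6* changed by 1.43 ± 0.04 log2 units more than *Kcnh2* (exact permutation test, two-sided, p = 0.0286).

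*Kcnc1* encodes a fast delayed rectifier that lets neurons fire at high rates. Its signals were 0.56, 0.38, 0.37 and 0.41 in control and 1.20, 1.18, 1.07 and 1.21 with HX630. All HX630 arrays were higher than all control arrays, with a log2 fold change of 0.74 ± 0.05 (limma, adjusted p = 1.43e-05), and its other probes gave 0.79 ± 0.11 and 0.85 ± 0.06. *Kcnd3*, in contrast, fell further than any other of the 31 genes. It encodes an A-type channel, whose transient current delays the next spike. Its signals were -1.55, -1.59, -1.46 and -1.56 in control and -2.77, -2.72, -2.89 and -2.86 with HX630. The means were -1.54 ± 0.06 and -2.81 ± 0.08, so that HX630 cells held 41.5% of the control signal, with a log2 fold change of -1.27 ± 0.05 (limma, adjusted p = 6.36e-07).

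The promoters of *Kcnh6* and *Kcnd3* are shown because these genes, with the largest rise and the largest fall among called members that have a promoter window, belong to one family. They are RefSeq windows on GRCm38.p6, from 250 bases before to 50 bases after the start of transcription, at chr11:106007898-106008197 (plus strand) for *Kcnh6* and chr3:105451640-105451939 (plus strand) for *Kcnd3*. Capitals mark a match to ACGTG, the core that hypoxia-inducible factors bind, read here on the other strand.

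Kcnh6: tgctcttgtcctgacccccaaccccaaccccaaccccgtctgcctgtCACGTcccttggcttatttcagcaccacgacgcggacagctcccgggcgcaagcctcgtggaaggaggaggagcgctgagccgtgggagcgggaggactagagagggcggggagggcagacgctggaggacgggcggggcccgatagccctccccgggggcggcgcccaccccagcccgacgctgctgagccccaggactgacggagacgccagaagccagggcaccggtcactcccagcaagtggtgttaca
Kcnd3: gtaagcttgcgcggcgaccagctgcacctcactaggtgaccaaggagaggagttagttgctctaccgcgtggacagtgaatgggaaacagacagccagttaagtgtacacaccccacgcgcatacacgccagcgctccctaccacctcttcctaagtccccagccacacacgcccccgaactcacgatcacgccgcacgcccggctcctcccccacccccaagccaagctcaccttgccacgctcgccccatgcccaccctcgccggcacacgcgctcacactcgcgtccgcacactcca

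Of the 40 genes, 30 had such a window, 44 windows in all, and their median G+C content was 64.2% against 52.7% over 32851 windows. Motifs were searched on both strands. AGGTCA, the core that nuclear receptors bind, was in 2 of the 44 windows (*Hcn2* and *Scn8a*), against 16.3% of all windows. AAAGGTCA, the element of the Nr4a receptors, which contains AGGTCA, was in 1 of the 44 (*Scn8a*), against 1.51%. TGACGTCA, the element of CREB, was in 0 of 44, against 1.79%. TGANTCA, which AP-1 binds, was in 1 of 44 (*Kcnk2*), against 7.81%. ACGTG was in 4 of 44 (*Cacna1c*, *Cacnb1*, *Kcnh6* and *Kcnj6*), against 19.6%. The window of *Kcnd3* held none of these letters, and neither did those of *Cacna2d2* and *Kcnj3*. These matches describe letters in short windows and not sites that were bound.

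All 4 listed genes of the inward rectifiers and the ATP-sensitive channel were tested, 3 passed the p threshold, all with lower signals under HX630, 2 were called lower and 0 higher, and the median log2 fold change was -0.51. The estimates of all 4 lay below 0 under each scaling tried. Of all genes tested, 51.2% passed the p threshold in either direction and 11.2% were called lower. *Kcnj3* and *Kcnj6* encode subunits of the channels that G protein βγ subunits open, through which somatostatin and other inhibitory ligands quiet a cell. The signals of *Kcnj3* were -1.24, -1.27, -1.32 and -1.24 in control and -2.30, -2.56, -2.53 and -2.42 with HX630. All HX630 arrays lay about 1 log2 unit or more below all control arrays. The means were -1.27 ± 0.04 and -2.45 ± 0.12, 44.0% of the control signal, with a log2 fold change of -1.18 ± 0.06 (limma, adjusted p = 2.19e-06). A second probe gave -1.25 ± 0.08. *Kcnj6* ranged from -4.14 to -3.80 in control and from -4.25 to -4.10 with HX630, which overlapped. Its log2 fold change was -0.26 ± 0.08 (limma, adjusted p = 0.0194). *Kcnj3* changed by -0.93 ± 0.08 log2 units relative to *Kcnj6* (exact permutation test, two-sided, p = 0.0286).

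The pore *Kcnj11* and the sulfonylurea receptor *Abcc8* together form the ATP-sensitive channel, which couples the energy state of a cell to its membrane potential. The signals of *Kcnj11* were -3.44, -3.45, -3.25 and -3.36 in control and -4.03, -3.96, -3.95 and -3.91 with HX630. The groups did not overlap, and the log2 fold change of -0.59 ± 0.05 (limma, adjusted p = 4.42e-05) lay at the fold threshold. The call was lost on leaving out replicate 3 or 4 of the control arrays or replicate 1 of the HX630 arrays, where the log2 fold changes were -0.55, -0.58 and -0.57, and under 4 other scalings. A dimmer probe gave -0.48 ± 0.21 and was not called. *Abcc8* ranged from 3.56 to 3.76 in control and from 3.13 to 3.30 with HX630, with no overlap. This gave a log2 fold change of -0.44 ± 0.06 (limma, adjusted p = 3.02e-04), its second probe gave -0.45 ± 0.05, and neither reached 1.5-fold. Leaving out single arrays moved the log2 fold change of *Kcnj11* between -0.61 and -0.55.

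The calcium-activated potassium channels, which open as calcium enters and end or space the spikes, held one of the largest rises of the set. Of 6 listed genes, 4 were tested, with 1 called higher and 1 lower. *Kcnn2* encodes a small-conductance (SK) channel. Its signals were -5.22, -5.49, -5.41 and -5.44 on the control arrays and -3.40, -3.41, -3.49 and -3.44 on the HX630 arrays. The HX630 arrays lay within 0.09 of each other and more than 1.5 log2 units above every control array. The means were -5.39 ± 0.12 and -3.43 ± 0.04, a 3.87-fold rise with a log2 fold change of 1.95 ± 0.06 (limma, adjusted p = 2.56e-07). *Kcnn2* was also called with normexp correction, at a log2 fold change of 1.06. *Kcnn3*, another SK channel, ranged from -0.70 to -0.56 in control and from -0.67 to -0.62 with HX630, an overlap, with a log2 fold change of 0.00 ± 0.04 (limma, adjusted p = 0.927). A dimmer probe of *Kcnn3* gave 0.39 ± 0.03 (limma, adjusted p = 3.9e-05), less than 1.5-fold. *Kcnn2* changed by 1.95 ± 0.04 log2 units more than *Kcnn3* (exact permutation test, two-sided, p = 0.0286).

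*Kcnma1* encodes the pore of the large-conductance (BK) channel, which is opened by calcium and voltage together. Its signals were -0.13, -0.39, -0.18 and -0.22 in control and -0.82, -0.88, -0.84 and -0.88 with HX630. The groups did not overlap, and the log2 fold change was -0.63 ± 0.06 (limma, adjusted p = 5.04e-05). A second probe gave -0.69 ± 0.04. With the median scaling, the spike-in scaling and normexp correction, the changes of -0.54, -0.41 and -0.55 fell short of 1.5-fold. *Kcnmb4*, a β subunit of the BK channel, ranged from -5.85 to -5.18 in control and from -5.92 to -5.31 with HX630, an overlap over most of the range. Its log2 fold change was -0.02 ± 0.19 (limma, adjusted p = 0.935). *Kcnmb2* and *Kcnn1* were not above background on any array.

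The two-pore domain channels carry the background potassium current that holds the resting potential. All 3 listed genes had lower signals with HX630 and groups that did not overlap, 2 were called lower and 0 higher, and the median log2 fold change was -0.73. Of all genes tested, 61.5% had groups that did not overlap and 11.2% were called lower. With the spike-in scaling *Kcnk1* was at 0.01, while *Kcnk2* and *Kcnk3* stayed lower, *Kcnk2* at -0.51 and no longer called. *Kcnk3* encodes the acid-sensitive TASK channel. Its signals were 2.39, 2.42, 2.35 and 2.33 in control and 1.66, 1.52, 1.48 and 1.59 with HX630. The means were 2.37 ± 0.04 and 1.56 ± 0.08, 56.9% of the control signal, with a log2 fold change of -0.81 ± 0.05 (limma, adjusted p = 3.84e-06). *Kcnk2* encodes TREK, a channel that responds to stretch, lipids and cAMP signaling. Its signals were -2.74, -2.79, -2.83 and -2.75 in control and -3.01, -3.69, -3.65 and -3.69 with HX630. HX630 replicate 1 lay 0.64 above the next HX630 array and below all control arrays. The log2 fold change was -0.73 ± 0.15 (limma, adjusted p = 0.00386), and without that array it was -0.90 (limma, adjusted p = 4.68e-06). The call was lost when any one of the other 7 arrays was left out, with adjusted p between 0.0101 and 0.0133 (limma). *Kcnk1*, the TWIK channel, ranged from 2.69 to 2.71 in control and from 2.47 to 2.53 with HX630. This gave a log2 fold change of -0.21 ± 0.03 (limma, adjusted p = 6.29e-04), less than 1.5-fold, and *Kcnk3* changed by 0.61 ± 0.04 log2 units more in the lower direction (exact permutation test, two-sided, p = 0.0286). The inward rectifiers and two-pore channels are separate families of the list. Over both together, 7 of 7 tested genes were lower, 4 were called lower and 0 higher. This count follows from joining families in which every estimate lay below 0, so it adds no support to the values of each. At an unadjusted p of 0.05 all 7 were lower and 0 higher, by limma and by the methods' t-test, where 36.4% and 35.6% of all genes were lower.

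The HCN channels carry the pacemaker current, which opens as the membrane hyperpolarizes. Of 3 listed genes, 2 were tested and 0 were called. *Hcn3* ranged from -3.03 to -2.91 in control and from -2.50 to -2.43 with HX630, without overlap. Its log2 fold change was 0.52 ± 0.04 (limma, adjusted p = 1.47e-05), just under 1.5-fold, and it was called higher with the median scaling (0.61) and the spike-in scaling (0.74). *Hcn2* ranged from 3.00 to 3.52 in control and from 2.65 to 3.18 with HX630, which overlapped. This gave a log2 fold change of -0.38 ± 0.16 (limma, adjusted p = 0.0711), and a dimmer probe gave -0.54 ± 0.04 (limma, adjusted p = 1.91e-05), also under 1.5-fold. At an unadjusted p of 0.05, which most genes of the array pass by limma in one direction or the other, both passed by limma and *Hcn3* alone by the methods' t-test. The changes of *Hcn2* and *Hcn3* differed by -0.90 ± 0.18 log2 units (exact permutation test, two-sided, p = 0.0286), and by -0.58 with normexp correction. *Hcn4* was not above background on any array.

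**Figure D3:**
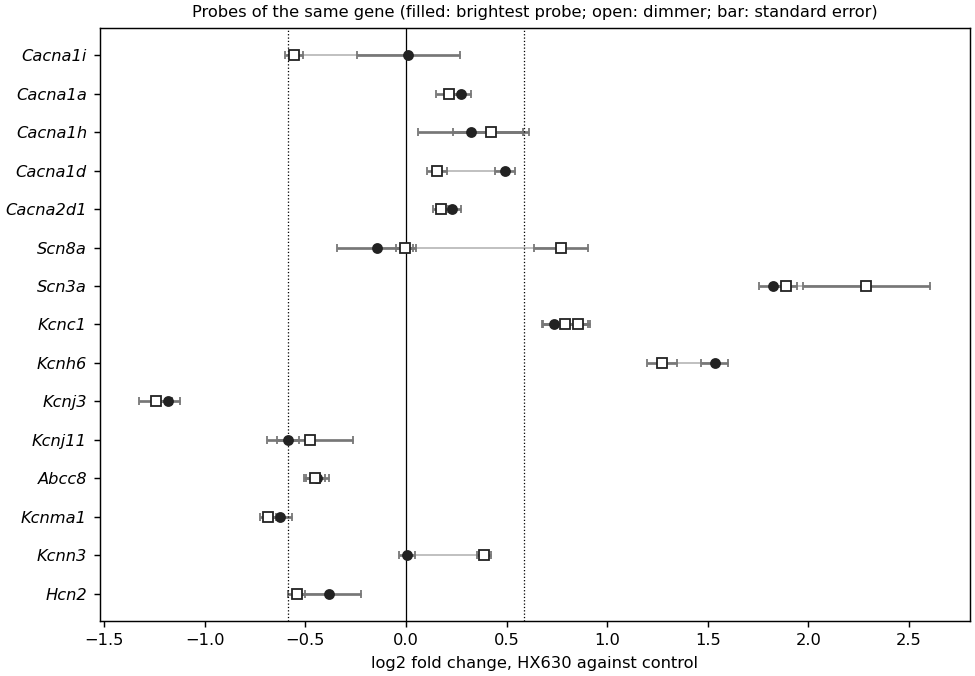
Log2 fold change, HX630 against control, of every tested probe for the 15 channel genes with more than 1 tested probe. Filled circles are the brightest probe, open squares the dimmer ones, bars the standard error and dotted lines a fold change of 1.5; the probes of *Scn3a*, *Kcnc1*, *Kcnh6*, *Kcnj3* and *Kcnma1* lie on the same side of the threshold, those of *Scn8a* and *Cacna1i* do not have the same sign.

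The array held several tested probes for 15 of the 31 genes, so single changes could be set against a second measurement on the same RNA. For 13 of the 15 every probe gave the same call, and for 13 every probe had the same sign. The calls differed for *Scn8a* and *Kcnj11*, and the signs for *Cacna1i* and *Scn8a*. Of the 14 called genes, 8 were called under all 27 other settings tried, namely *Kcnn2*, *Scn3a*, *Kcnh6*, *Cacna2d2*, *Kcnc1*, *Kcnd3*, *Kcnj3* and *Kcnk3*. The other 6, *Cacna1g*, *Cacnb1*, *Scn2b*, *Kcnj11*, *Kcnma1* and *Kcnk2*, lost the call under at least 1 setting, and 0 of the 14 changed direction.

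The remaining genes of the same channel families were a list of 102, of which 97 had a probe and 61 were tested. Of the 61, 8 were called higher and 13 lower, with a median log2 fold change of -0.19. This split depended on the scaling, with 10 higher and 8 lower by the spike-in probes and 8 and 9 by the median of each array. Among the large falls was that of *Kcnk10*, a TREK-type two-pore channel, to 8.38% of control (log2 fold change -3.58 ± 0.12, limma, adjusted p = 3.83e-07). *Kcnk10* ranged from -1.32 to -1.17 in control and from -4.98 to -4.41 with HX630. Falls of -1.77 in *Kcnf1*, a silent modifier of voltage-gated channels, of -1.51 in *Kcnd1*, an A-type channel like *Kcnd3*, and of -1.41 in *Kcnj15*, an inward rectifier, were also among them. Large rises were those of *Scn11a* (1.69 ± 0.09), a sodium channel of sensory neurons, *Kcnj12*, an inward rectifier, *Kcnu1* (1.35 ± 0.06), the BK-like channel of sperm, and *Kcnq1* (1.22 ± 0.04), a slow delayed rectifier. *Kcnj12* was not well above background on the 4 control arrays, and its bound was at least 1.82-fold higher with HX630. It was tested only because of its HX630 arrays. Its p of 2.7e-04 (limma, adjusted) rests on control signals near background and adds no support to the rise. On the log2 scale its bound was 0.87, below the change of *Cacng4* (1.02), so its place among the largest rises is not established. Among the other channel genes above background on all 8 arrays 6 were called higher.

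**Figure D4:**
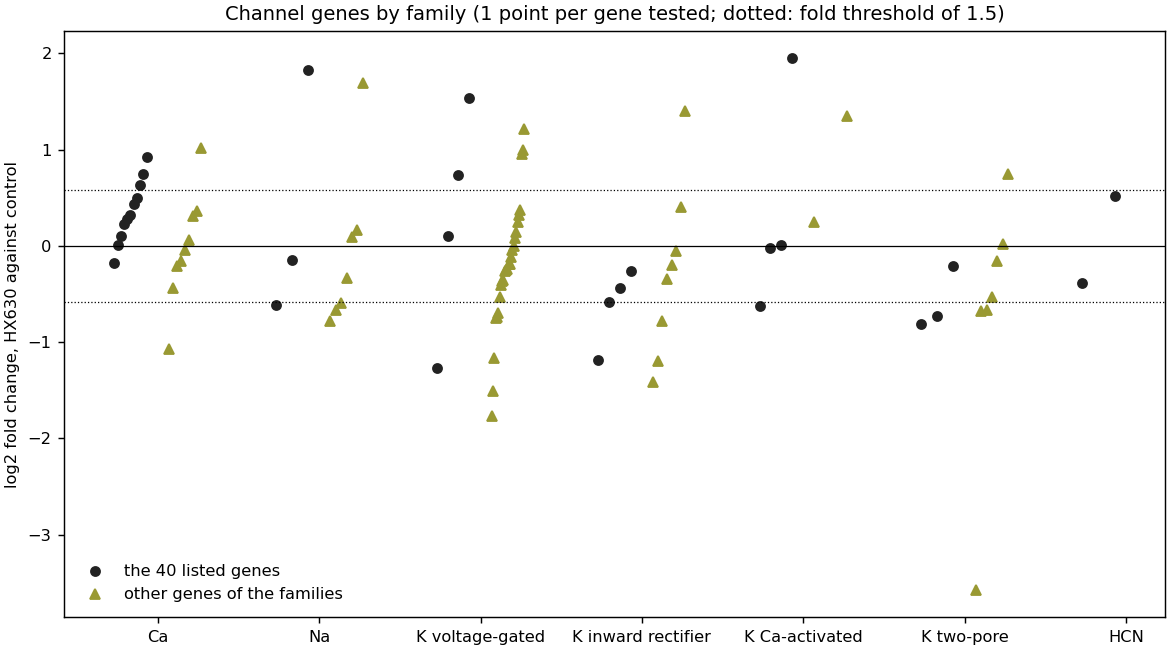
Log2 fold change, HX630 against control (y axis), of the tested channel genes by family (x axis). Black circles are the 31 tested genes of the list, olive triangles 59 other genes of the same families, and dotted lines mark a fold change of 1.5; the listed calcium channel genes lie between -0.18 and 0.93, and *Kcnk10* lies lowest at -3.58.

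By family, the other genes filed with the calcium channels were 4 higher and 5 lower of 9 tested, with a median of -0.04. Apart from *Cacna1s* and *Cacna2d4* these were *Cacng* genes, of which the listed set holds none, so the lists do not hold like genes. Of the other two-pore genes, 5 of 7 were lower and 3 were called lower, and of the other inward rectifiers 6 of 8 were lower, 2 were called lower and 1, *Kcnj12*, was called higher. Among the other sodium channel genes 4 of 8 were called lower and 1, *Scn11a*, higher. These counts describe the lists, and the difference between them was not tested.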

How the data were processed

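RNA of 4 control and 4 HX630 samples was hybridized to 1 array each. The authors deposited the output of Agilent Feature Extraction 10.7.3.1, which holds a processed intensity per spot after background subtraction, the median intensities of spot and background, and flags (given as other text values) for spots above background. They also deposited a log2 table, which differed by at most 0.00125 from the values used here. With R 4.3.3 and limma 3.58.1, each array was centered, as log2, on the 75th percentile of its processed signals. Of 44397 spots, 1377 control spots and outlier spots were left out, and repeats of a probe were averaged, giving 39429 probes. Of these, 28552 were well above background on at least 4 arrays and were tested with lmFit and eBayes, adjusted by Benjamini-Hochberg over all of them. RefSeq accessions gave symbols for 26055 probes (GRCm38.p6 table, names only, as the array design uses another build). The study's methods name a fold change of 1.5 and a p of 0.01 in a t-test, with no adjustment stated. Here 0.01 was applied to the adjusted p of limma.

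Full statistics are given for every called gene and for up to 2 further genes of each family with the largest mean signal. Of the other channel genes the 5 largest rises and falls are named, except 2 genes that are counted but not reported here. The genes and lists were chosen with earlier results of these data known, and the comparisons between pairs of genes were added after the values were seen. The exact test uses all 70 regroupings. The code was tested on simulated data. The alternatives are other scalings, background correction, filters, variance models, tests, thresholds, probe summaries, a block for the replicate number, and the omission of single arrays. The number of arrays limits the precision. Real-time PCR and the other experiments of the study are not analysed here.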

Additional observations from a re-analysis of the deposited data

Results flagged for a closer look

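For 78 groups of 4 arrays of the named genes, the gap between an extreme array and its neighbor was set against the whole range of the group. In 5 groups this ratio was above the critical value of Dixon for 4 values, where chance gives about 1 in 20 groups (3.9 of 78). Among the listed channels these were HX630 replicate 1 of *Cacna1c* (ratio 0.874), control replicate 1 of *Cacna1g* (0.908) and HX630 replicate 1 of *Kcnk2* (0.944). Each lay above the other arrays of its group. Without the array in question, the log2 fold change was -0.30 for *Cacna1c* (limma, adjusted p = 0.0376), 0.76 for *Cacna1g* (adjusted p = 5.83e-04) and -0.90 for *Kcnk2* (adjusted p = 4.68e-06). Among the other channel genes they were HX630 replicate 1 of *Kcnf1* (0.860) and HX630 replicate 1 of *Kcnq1* (0.889). Without these arrays the log2 fold changes were -1.83 and 1.20, and both genes stayed called.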

How the results depend on the processing

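All 14 called genes kept their direction under the 27 alternatives. The number of genes called higher (7) was 12 without a fold threshold, and the number called lower (7) was 4 with the median of each array, 3 with the spike-in probes, and 4 to 6 when single arrays were left out, with 4 without control replicate 3 or control replicate 4. Of the other channel genes, 13 instead of 8 were higher without a fold threshold and 8 instead of 13 were lower with the spike-in probes. With normexp correction 5 listed genes were called in each direction. Signs changed for 7 genes, none of them called. With the spike-in probes these were *Cacna1c* (0.0404), *Scn8a* (0.0722), *Kcnmb4* (0.20) and *Kcnk1* (0.0122), and with normexp correction *Cacna1b* (-0.26) and *Cacna1i* (-0.0428). The mean over probes gave -0.27 for *Cacna1i* and 0.21 for *Scn8a*, and *Kcnmb4* was at 0.0677 with the median, 0.10 with quantile normalization and 0.11 with array weights. With single arrays left out, *Cacna1b* ran from -0.0240 to 0.29, *Cacna1i* from -0.17 to 0.17, *Kcnmb4* from -0.12 to 0.11 and *Kcnn3* from -0.0148 to 0.0330. The spike-in shift applies to all genes alike, and the cause of the other changes was not tested.

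The difference between *Kcnn2* and *Kcnn3* was 0.99 with normexp correction and ran up to 2.04 elsewhere, and the other named pairs kept their direction, between 0.48 and 0.74 for *Cacna2d2* against *Cacna2d1*. With the replicate number as a replicate block, 7 listed genes were called higher and 7 lower, and 8 and 12 of the other channel genes. The deviations of same-numbered arrays correlated at 0.52, -0.01, 0.24 and 0.38, so the numbers were not taken to pair the samples. For the dim probes of *Cacna1g* and *Kcnn2*, normexp correction gave log2 fold changes of 0.08 and 1.06 in place of 0.63 and 1.95.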

Other observations

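Replicate 1 stood highest in its group for many of the channel genes. On the control arrays it held the highest signal for 19 of the 31 tested genes, and on the HX630 arrays for 22 of the 31. The lowest signal was most often on control replicate 2 (13 genes) and HX630 replicate 3 (14 genes). The same counts over all genes were not made, so whether the pattern is particular to the channel genes was not tested. The labels give no property of these samples beyond their number, and the source of the pattern was not tested.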
